A study of Mus musculus with 15 samples.

Results

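H3K27me3 islands were compared between liver of Uhrf1hepKO mice (KO) and liver of wild-type mice (WT). An island is a stretch of the genome in which SICER, a caller for broad histone marks, joined enriched windows of 1000 bp across gaps of up to 4000 bp. The members are all listed islands on chromosomes 1 to 19 of the baseline H3K27me3 libraries, 36022 of the 521998 regions in the 14 lists of the series. They came from 3 libraries, 1 of KO (13006 islands) and 2 of WT (10473 in replicate 1 and 12543 in replicate 2). In Uhrf1hepKO mice, hepatocytes lack Uhrf1. The promoter that drives the deletion is not given in the labels, so whether other liver cells, such as bile duct cells, keep Uhrf1 is not settled here.

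All mice were C57Bl/6, aged 8 to 12 weeks and on a normal diet, and livers were taken in the morning. Nuclear chromatin was digested with micrococcal nuclease, so that the DNA counted came from nucleosomes. KO and WT replicate 1 carry no round in the labels, while WT replicate 2 was the 0 h point of a regeneration round, labelled round 3. The labels do not say that the WT libraries came from separate animals, so the spread between them may be technical. In whole liver, a change in the cells present and a change of the mark within a cell cannot be told apart.

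H3K27me3 is set by Polycomb repressive complex 2 and lies over silent developmental genes, often across whole gene clusters and the space between genes. Uhrf1 binds DNA methylated on only 1 strand after replication and brings the methyltransferase Dnmt1 to it. Polycomb complexes are known to favour unmethylated CG-rich DNA, and heavy DNA methylation and H3K27me3 are usually found apart. The comparison addresses how the placement of H3K27me3 differs in liver whose hepatocytes cannot keep up DNA methylation.

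Promoters that changed sides between the lists are shown first, because CG is the sequence that Dnmt1 methylates. The next sequences are the 250 bases before the start of 4 genes whose promoter lay in an island of the KO list that met no island of either WT list. None of the KO islands named by length or fold held a promoter, so 4 of the highest fold that did were taken after their values were seen. All are RefSeq sequences of GRCm38.p6, 5′ to 3′ on the strand of the gene, with every CG in capitals. Art4 (chr6:136857601-136857850, minus strand) encodes an ADP-ribosyltransferase that carries a blood group, and Nrap (chr19:56390039-56390288, minus strand) a muscle anchoring protein. Arhgdib (chr6:136941900-136942149, minus strand) is a gene expressed in blood cells, and Acsm4 (chr7:119689776-119690025, plus strand) encodes a fatty acid CoA ligase.
Art4: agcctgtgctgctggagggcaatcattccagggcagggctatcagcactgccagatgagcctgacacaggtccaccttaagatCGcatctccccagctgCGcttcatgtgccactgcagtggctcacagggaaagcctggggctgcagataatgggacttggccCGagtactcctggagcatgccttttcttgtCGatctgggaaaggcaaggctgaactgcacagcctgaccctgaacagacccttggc
Nrap: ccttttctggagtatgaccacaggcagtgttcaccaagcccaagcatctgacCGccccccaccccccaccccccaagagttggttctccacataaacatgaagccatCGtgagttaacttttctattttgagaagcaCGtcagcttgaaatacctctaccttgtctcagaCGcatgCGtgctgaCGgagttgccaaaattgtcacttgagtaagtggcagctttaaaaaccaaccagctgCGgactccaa
Arhgdib: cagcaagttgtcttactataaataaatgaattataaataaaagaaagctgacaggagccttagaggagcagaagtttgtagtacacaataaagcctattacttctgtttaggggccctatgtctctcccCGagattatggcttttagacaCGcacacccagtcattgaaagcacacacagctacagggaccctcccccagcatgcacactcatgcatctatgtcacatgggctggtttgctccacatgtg
Acsm4: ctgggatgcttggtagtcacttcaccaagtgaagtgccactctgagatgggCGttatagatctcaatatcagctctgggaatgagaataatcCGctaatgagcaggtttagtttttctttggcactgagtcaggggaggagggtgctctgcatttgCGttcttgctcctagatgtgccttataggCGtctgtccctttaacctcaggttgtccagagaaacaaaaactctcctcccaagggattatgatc

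The opposite case was a promoter inside an island of both WT lists that met no KO island, and 4 of the 5 highest by the lower of the WT folds are shown in the same way. Ccdc106 (chr7:5055902-5056151, plus strand) encodes a coiled-coil protein and Fbll1 (chr11:35798885-35799134, minus strand) a relative of the nucleolar protein fibrillarin. C2cd4a (chr9:67832331-67832580, minus strand) encodes a C2 domain protein, and Lrfn5 (chr12:61522917-61523166, plus strand) a synaptic adhesion protein of neurons.
Ccdc106: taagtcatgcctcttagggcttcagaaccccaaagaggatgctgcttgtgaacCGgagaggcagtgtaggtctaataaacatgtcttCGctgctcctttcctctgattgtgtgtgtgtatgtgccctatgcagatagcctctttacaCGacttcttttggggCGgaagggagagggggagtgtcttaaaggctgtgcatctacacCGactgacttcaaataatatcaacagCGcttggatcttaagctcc
Fbll1: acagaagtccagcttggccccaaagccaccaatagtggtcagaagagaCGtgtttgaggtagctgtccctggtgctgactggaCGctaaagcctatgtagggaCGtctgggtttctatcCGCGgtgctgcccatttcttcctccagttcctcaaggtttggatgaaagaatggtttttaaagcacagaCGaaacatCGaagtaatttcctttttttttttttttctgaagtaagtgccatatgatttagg
C2cd4a: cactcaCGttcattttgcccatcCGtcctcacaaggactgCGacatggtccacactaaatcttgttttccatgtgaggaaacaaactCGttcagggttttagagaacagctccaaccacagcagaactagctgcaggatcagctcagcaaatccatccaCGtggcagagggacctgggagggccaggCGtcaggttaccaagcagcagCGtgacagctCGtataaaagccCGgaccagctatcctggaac
Lrfn5: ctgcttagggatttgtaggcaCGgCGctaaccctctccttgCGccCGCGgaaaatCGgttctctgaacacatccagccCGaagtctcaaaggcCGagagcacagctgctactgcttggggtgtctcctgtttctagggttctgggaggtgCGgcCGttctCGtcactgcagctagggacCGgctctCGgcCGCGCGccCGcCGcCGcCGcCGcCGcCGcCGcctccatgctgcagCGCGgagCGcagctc

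The promoters marked in KO alone held 4, 7, 2 and 4 CG in these 250 bases, in the order shown. Those unmarked in KO held 6, 7, 9 and 27. The motif searched was CG, which reads the same on both strands and cannot overlap itself. It occurred in 92.98% of the 16457 promoters of this length, with a median of 10 per promoter. Only the Lrfn5 promoter was CG-rich by the rule used here (GC of at least 55% and a ratio of observed to expected CG of at least 0.65 over the 300 bases that also include the first 50 of the gene).

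The islands themselves had the following values. The Art4 island (9 kb) had 416 ChIP reads against 291 control reads, a fold of 2.23. The folds of the other islands in KO alone were 2.05 for Nrap, 1.94 for Arhgdib and 1.84 for Acsm4. These folds are the authors' values, ChIP over control after scaling to library size. The whole body of Arhgdib lay in an island in KO, against 0% in both WT libraries. The body of Nrap was covered to 57.2% in KO, against 34.3% and 72.8% in WT, so over the whole gene KO lay between the WT libraries. For Art4 and Acsm4 the covered shares were 39.3% and 56.95% in KO, against 0% in both WT libraries. Among the promoters unmarked in KO, the Ccdc106 island had folds of 2.55 and 3.28 in WT replicates 1 and 2. The folds of the 3 others in the WT libraries were 2.48 and 2.49 for Fbll1, 2.31 and 2.47 for C2cd4a, and 2.34 and 2.31 for Lrfn5. All 4 of these islands were short, between 6 and 9 kb in WT replicate 1.

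Over the whole genome KO had the most islands and the largest covered length, by a small margin over WT replicate 2. Islands covered 499.7 Mb in KO, against 417.2 Mb in WT replicate 1 and 489.9 Mb in WT replicate 2. KO covered more than both WT libraries on 11 of the 19 chromosomes, lay between them on the other 8 and was below both on 0. This put KO 46.15 Mb above the mean of the WT libraries, whose SD was 51.4 Mb, so the difference was within the spread of WT. At a fold of at least 1.5 KO covered 393.7 Mb, against 302.0 and 342.3 Mb, which put it 71.6 Mb above the WT mean, beyond that SD. With 1 KO and 2 WT libraries, exchanging labels gives no p below 0.333, and island counts and lengths are therefore described without a test. ChIP reads in islands, in units of 1e6, were 21.6 in KO, 16.4 in WT replicate 1 and 22.1 in WT replicate 2.

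Depth moved with the covered length. The KO library was 1.12 times the size of WT replicate 1, judged from the scale between ChIP and control reads, and its covered length was 1.198 times as large. The share of the library that fell in islands was 1.18 times that of WT replicate 1. The part of depth in the covered length was not tested. KO and WT replicate 1 were called against the same control library, since all 411 islands with equal bounds in their lists had equal control reads. WT replicate 2 had another control, with 0 equal among 161 islands of equal bounds with KO.

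Island size was alike in the 3 lists. The median length was 26000 bp in KO, against 28000 bp in WT replicate 1 and 25000 bp in WT replicate 2. The mean was 38.4 kb in KO, against 39.8 and 39.1 kb in WT. KO had 799 islands of 100 kb or more (6.14% of its list), against 601 (5.74%) in WT replicate 1 and 863 (6.88%) in WT replicate 2. At the short end, 868 KO islands were 10 kb or shorter, against 519 and 1230 in WT. The numbers of KO and WT replicate 2 were close in most classes, and the surplus of KO over WT replicate 1 lay mostly between 10 and 20 kb, where KO had 3809 islands against 2515. Medians of the authors' fold were 1.63 in KO, 1.62 in WT replicate 1 and 1.57 in WT replicate 2.

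**Figure D1:**
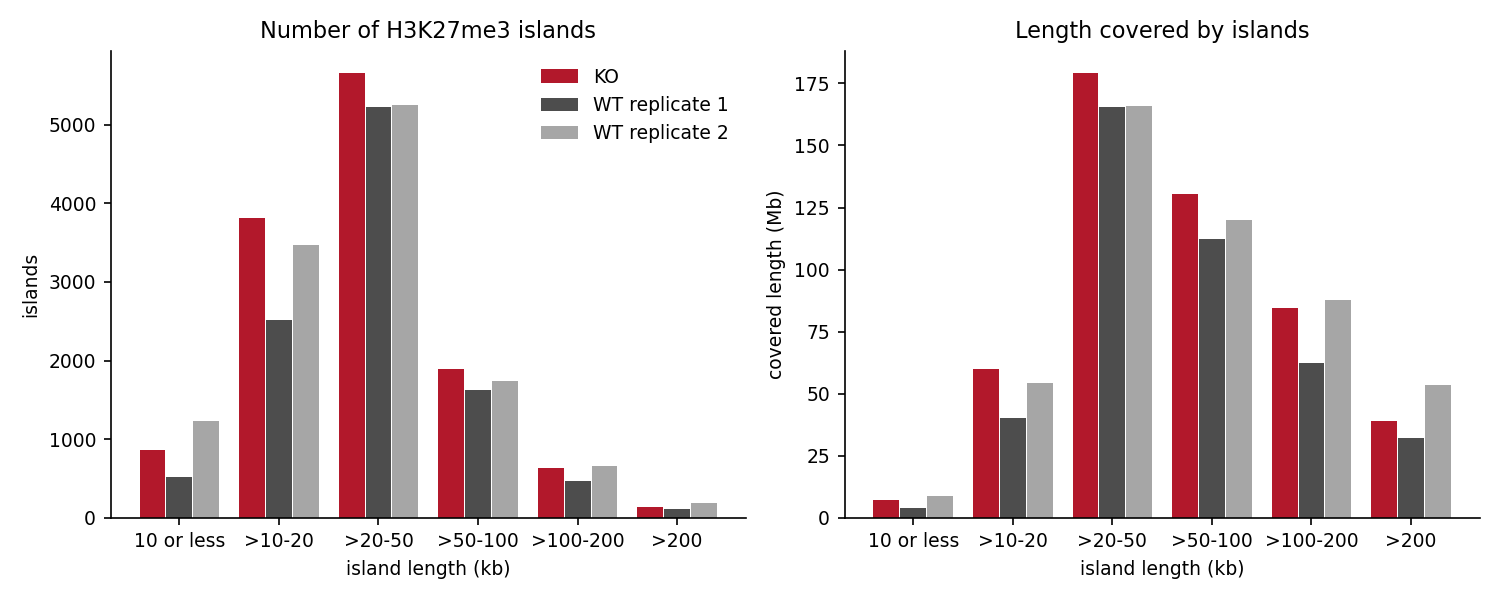
Number of H3K27me3 islands (left, y axis) and length they cover in Mb (right, y axis) by island length in kb (x axis), for KO, WT replicate 1 and WT replicate 2, 1 library per bar. The 3809 KO islands of over 10 to 20 kb stand above 2515 and 3471 in WT, while over 200 kb the KO count of 142 lies between 113 and 192.

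The 5 longest KO islands each met 1 or more islands in both WT libraries. The longest, 696 kb at chr8:11926001-12622000, covers Sox1, a transcription factor of neural progenitors, and was as long in WT replicate 1 (696 kb) and 743 kb in WT replicate 2. Its fold was 2.41 in KO, against 2.53 and 2.54 in WT. Around Ncam1, which encodes a neural adhesion molecule, a KO island of 565 kb met 3 islands in each WT library, the longest of 354 and 492 kb. At Runx1, a regulator of blood cell formation, the KO island spanned 505 kb, against 5 islands of up to 206 kb in WT replicate 1 and 2 of up to 274 kb in WT replicate 2. Near the sorting receptor gene Sorl1, 512 kb of 1 KO island met 4 and 6 WT islands, with the longest at 287 and 324 kb. The second in length, 599 kb on chromosome 14 with a fold of 1.08, was part of a 1693 kb island in WT replicate 1 and met 5 in WT replicate 2. Enrichment at that locus was low in every library, with folds of 1.32 and 1.10 in WT.

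Joining and splitting occurred in both directions and about as often between the WT libraries. In KO, 1312 islands (10.1%) met 2 or more islands of WT replicate 1, and 1186 islands of WT replicate 1 (11.3%) met 2 or more of KO. Against WT replicate 2 the numbers were 1460 KO islands and 1585 WT islands. Between the WT libraries, 1421 islands of replicate 2 met 2 or more of replicate 1, and 1195 the reverse. Loci that were 1 island in KO and 2 or more in both WT libraries numbered 289. The same count with a WT library in the place of KO was 215 for replicate 1 and 439 for replicate 2. Loci whole in both WT libraries and split in KO numbered 241, against 303 split in WT replicate 1 alone and 374 in WT replicate 2 alone. The KO count lay inside the WT range for joining and below it for splitting.

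Among islands that matched 1 to 1, those of KO were longer than their partners in WT replicate 1 more often than shorter. KO was longer in 3201 and shorter in 2341 of 6173 such pairs, a sum of 15.3 Mb. Against WT replicate 2 the balance was 2738 longer and 2865 shorter of 5998, with a sum of 2.12 Mb. WT replicate 2 was in turn longer than WT replicate 1 in 2740 and shorter in 2239 of 5296 pairs.

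The 5 loci with most joining had 1 KO island in the place of 5 to 8 islands of WT replicate 1. At chr11:111615001-111901000 the KO list had 1 island of 286 kb with a fold of 1.60, where WT replicate 1 had 8 islands (185 kb in all) and WT replicate 2 had 4 (103 kb). No protein-coding gene that can be named lies in it, and the nearest is Kcnj2, an inward rectifier potassium channel, 538175 bp away. At Dgki, which encodes a diacylglycerol kinase, 1 KO island of 304 kb met 5 and 7 islands in WT (238 and 201 kb in all). Frmd5, which encodes a FERM domain protein, had 1 KO island of 153 kb where WT had 5 and 4 (131 and 119 kb). Phactr1, a regulator of actin and protein phosphatase 1, lay under 1 KO island of 347 kb, against 5 and 3 in WT (319 and 302 kb). The fifth locus was on chromosome 13, 33030 bp from Ntrk2, the receptor of the neurotrophin BDNF. It had 1 KO island of 209 kb against 5 and 3 (134 and 189 kb). At these 4 loci WT islands thus already covered much of the KO span.

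The islands split most in KO, each into 3 where both WT lists had 1, lay at smaller loci. Rgs2, a regulator of G protein signalling, had 168 kb in 3 KO islands, against 1 island of 174 kb and 1 of 180 kb in WT. Tcf21, a transcription factor of mesenchyme, had 156 kb in KO, against 169 and 155 kb in WT. The others were Il12b, a subunit of interleukin 12, Cracr2a, a regulator of calcium channels, and a locus 62063 bp from Podxl, which encodes the surface protein podocalyxin. At the Podxl locus KO islands covered 81 kb, against 112 and 108 kb in WT. At the other 4, KO islands covered 114 to 168 kb, against 130 to 174 kb in WT replicate 1.

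**Figure D2:**
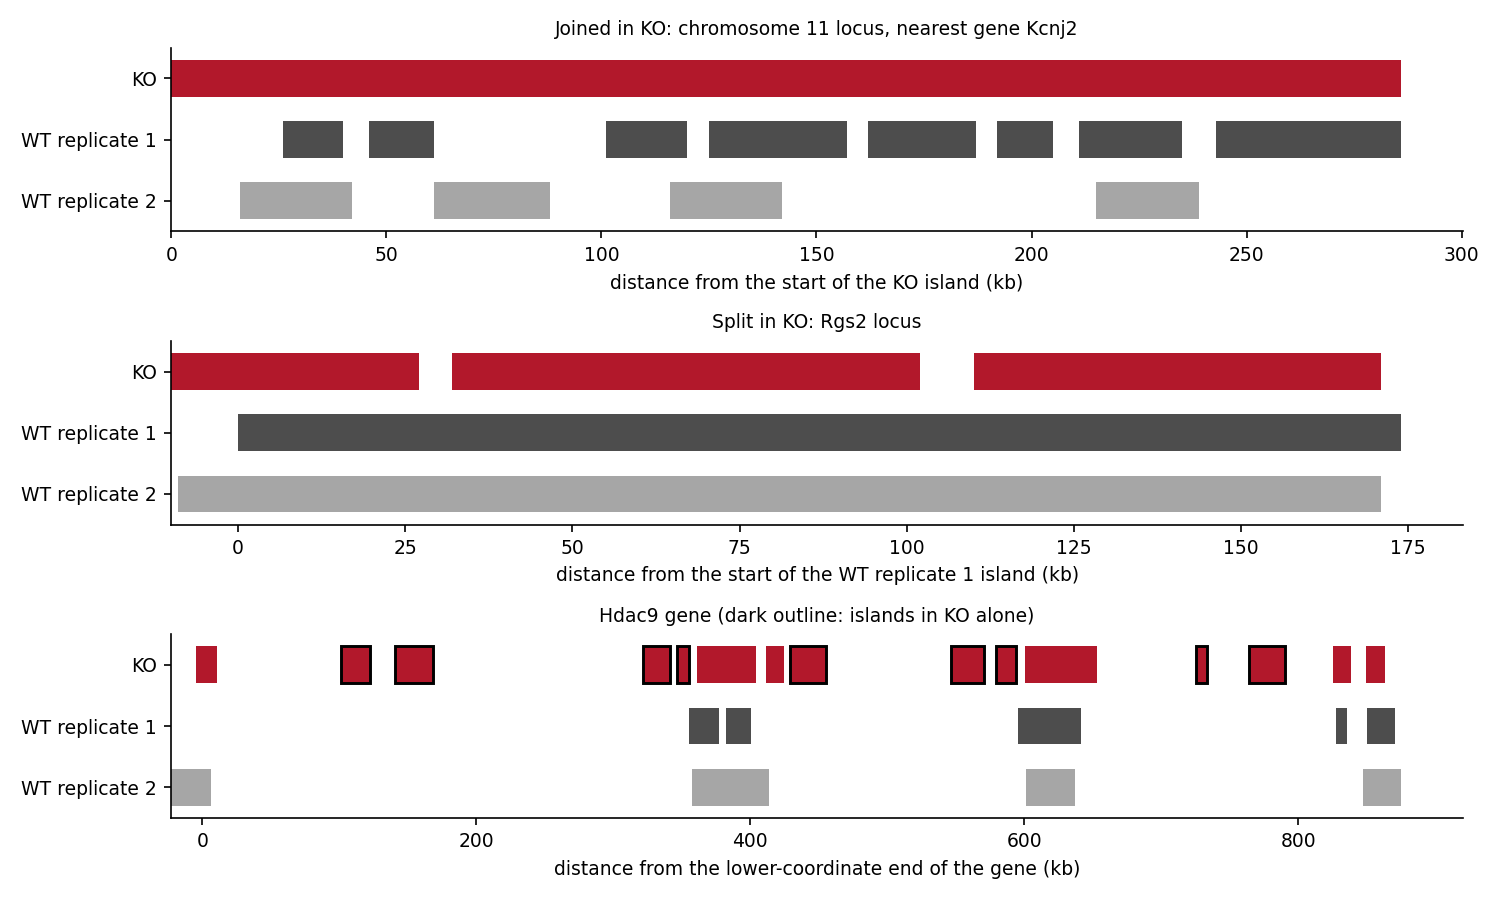
Islands as bars along distance in kb (x axes) in KO, WT replicate 1 and WT replicate 2 (rows, 1 library each) at the chromosome 11 locus joined in KO, at the Rgs2 locus split in KO and over Hdac9, where outlined bars are islands in KO alone. The 286 kb KO bar spans 8 and 4 WT islands, the Rgs2 locus shows 3 KO bars against 1 and 1, and Hdac9 shows 15 KO bars against 5 and 4.

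The genic and intergenic shares of the island length were close. Protein-coding genes held 38.99% of the KO length, against 37.1% and 39.7% in WT. The share outside genes was 0.588 percentage points lower in KO than the WT mean, and the SD between the WT libraries was 1.85 points. A promoter lay in 2788 KO islands (21.4%, Clopper-Pearson interval 20.7 to 22.2%), against 25.3% and 25.7% of islands in WT (intervals 24.4 to 26.1% and 24.9 to 26.4%). The promoters inside islands numbered 7.01 per Mb in KO, against 8.21 and 8.72 in WT. Islands of KO were thus the poorest in promoters of the 3 lists. These intervals, here and later, cover counting error only.

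Islands in KO alone are those of the KO list that met no island of either WT list. They numbered 1597 of 13006 (12.3%) and held 31.7 Mb. With a WT library in the place of KO, 388 islands (3.70%) were alone in WT replicate 1 and 2054 (16.4%) in WT replicate 2, so the number in KO lay inside the WT range. With each list reduced to its strongest islands of equal total length, 1075 islands were in KO alone, against 1267 and 1348 in WT, below both. At a fold of at least 1.5 the count was 1837 in KO, against 302 and 1207, above both. Their median length was 19000 bp and their median fold 1.46, against 1.36 and 1.44 for islands alone in WT replicates 1 and 2. Of these, 887 (55.5%) lay more than 5 kb from every protein-coding gene, against 57.2% and 40.2% for WT.

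Islands in KO alone and islands alone in a WT library differed in what they covered. A promoter lay in 70 of them (4.38%, interval 3.43 to 5.51%). The share was 15.2% (interval 11.8 to 19.17%) for islands alone in WT replicate 1 and 20.2% (interval 18.5 to 22.0%) for those alone in WT replicate 2. Among islands of 10 to 30 kb the shares were 4.42% for KO, against 12.0% and 19.3% for WT, so the gap was also there at like length. CG-rich promoters made up 6 of the 73 promoters inside the islands in KO alone (8.22%), against 0 of 65 and 103 of 483 (21.3%) for WT. Over all 16457 promoters, 39.7% were CG-rich. H3K4me3 peaks of KO replicate 1, a mark of active and poised promoters, lay in 7.70% of the islands in KO alone, against 11.9% and 27.2% of those alone in WT. H3K9me3 peaks of KO, a mark of silent repeats, held 0.546% of their length, against 1.32% and 5.59% for islands alone in WT. This contrast was noticed in the data, and with 3 libraries it has no test.

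Islands absent from KO and present in both WT libraries were few. They numbered 332 of the 9166 islands of WT replicate 1 that met one of WT replicate 2 (3.62%). Islands missing from WT replicate 1 alone were 1911 of the 10389 KO islands that met one of WT replicate 2. Those missing from WT replicate 2 alone were 1020 of the 9498 KO islands that met one of WT replicate 1. KO thus lacked the fewest. At equal total length the counts were nearer, 705 for KO, against 1138 and 884. At a fold of at least 2, 162 were missing in KO, against 83 and 284. A promoter lay in 78 of the 332 (23.5%, interval 19.04 to 28.4%), against 9.63% (interval 8.34 to 11.04%) and 8.14% (interval 6.53 to 9.99%) for islands missing from a WT library. These classes come from different lists. Islands missing from KO are islands of WT replicate 1, and those missing from a WT library are KO islands. Over the whole lists the share was 25.3% for WT replicate 1 and 21.4% for KO. At equal total length the shares among missing islands were 19.15% for KO, against 13.1% and 8.94%. At a fold of at least 2 they drew near each other, at 51.9%, against 48.2% and 47.5%. Of the promoters missing from KO, 19 of 89 were CG-rich (21.3%). Protein-coding genes held 31.9% of the length of islands missing in KO and 36.9% of the length of islands in KO alone.

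**Figure D3:**
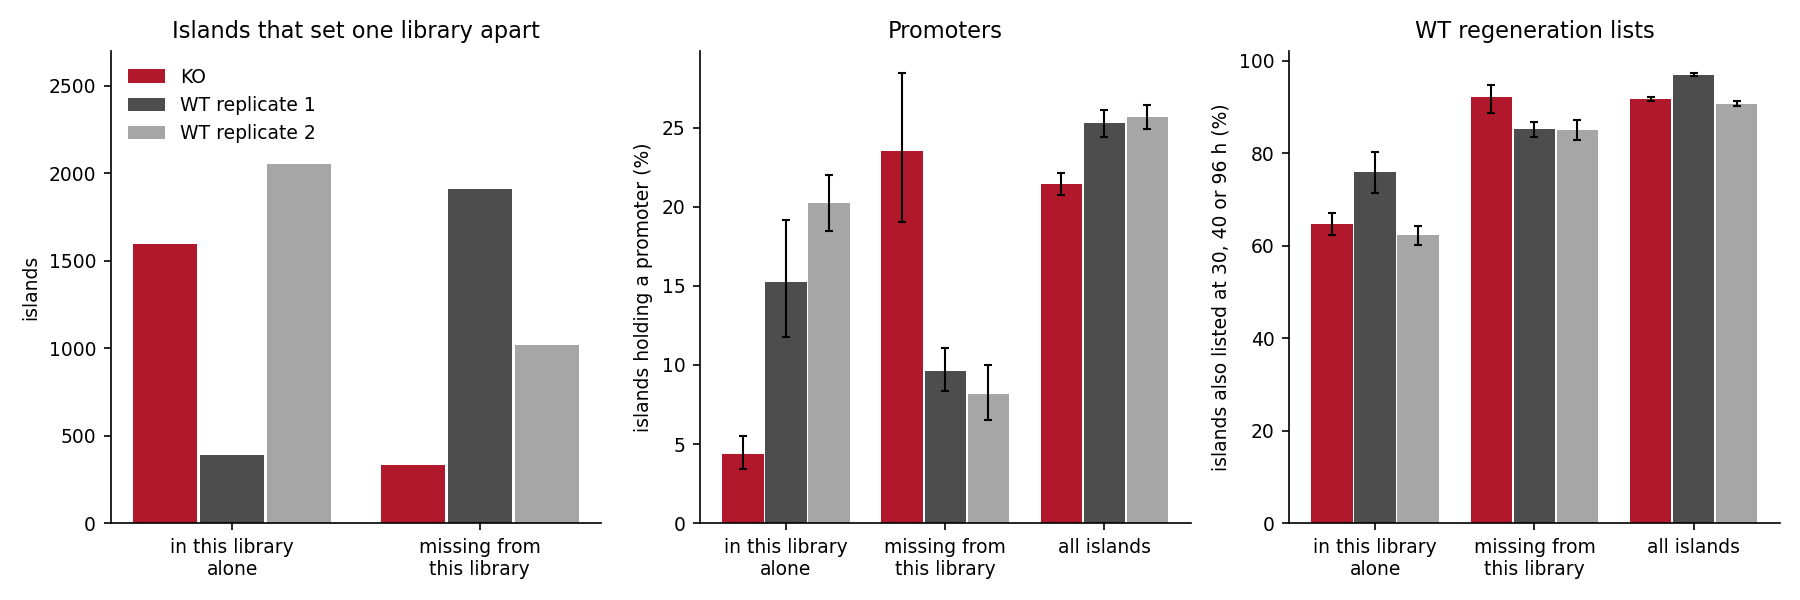
Left, number of islands (y axis) in 1 library alone, and missing from 1 library while present in both others, for KO, WT replicate 1 and WT replicate 2. Middle, share of these and of all islands that hold a promoter, in percent. Islands missing from KO are taken from WT replicate 1, and those missing from a WT library from KO. Right, share also listed in regenerating WT liver at 30, 40 or 96 h, in percent, with exact 95% intervals as bars in both. Islands in KO alone hold a promoter in 4.38% of cases, below 15.2% and 20.2%, and are listed in regenerating WT liver in 64.7%, between 76.0% and 62.2%.

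The lists of regenerating WT liver gave another view of both classes. Of the islands in KO alone, 41.9% met an island at 96 h, 29.9% at 30 h and 30.4% at 40 h. At least 1 of the 3 times listed 1034 of the 1597 (64.7%, interval 62.4 to 67.1%), and 563 were in none. For islands alone in WT replicate 1 the share was 76.0%, and for those alone in WT replicate 2, which came from the same round as the later times, 62.2%. Over all KO islands the share was 91.7%. Of the islands missing in KO, 306 of 332 (92.2%) were listed at 1 or more of the 3 times, against 85.2% and 85.1% of those missing from WT replicates 1 and 2. Over all islands of WT replicate 1, the list that the islands missing in KO come from, the share was 96.96%. Islands missing from a WT library come from the KO list.

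The longest islands in KO alone were 49 to 73 kb, with folds of 1.31 to 1.53. The longest pair, 73 kb each, lay in Adamts19 on chromosome 18, a secreted metalloprotease gene (2586 ChIP and 3069 control reads), and 5996 bp from Pkn2, a protein kinase gene (2506 and 2900 reads). Others lay inside Tenm2, a teneurin of synapses (56 kb), Prkg2, a cGMP-dependent kinase (50 kb), and Adarb2, a relative of RNA editing enzymes (49 kb). The remaining 5 lay between genes, the nearest being Pdcd6ip, Fam241a, Nudt12, Itga1 and Slit3. The 5 of highest fold were short, 3 to 10 kb, and also outside genes. They were nearest to Twf1 (fold 2.77), Tmem50b (2.496), Hunk (2.43), Cyp19a1 (2.25) and Ubac2 (2.24), at distances of 2320 to 12116 bp. None of these 15 held a promoter, against 10 of the 15 islands missing in KO that were named by the same rule. These sets are unlike in length, since the longest islands missing in KO spanned 63 to 221 kb. Over the whole classes the shares were 4.38% and 23.5%.

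The longest islands missing in KO were of another kind. They spanned 63 to 221 kb, and their folds were 1.04 to 1.25 in WT replicate 1 and 0.9504 to 1.18 in WT replicate 2. Some lay in families of near-identical genes, where the counts are uncertain because reads can fit several copies. Examples are the Sprr2a genes of the skin barrier on chromosome 3 and the vomeronasal receptor genes Vmn1r2 and Vmn1r3 on chromosome 4. Others were 3 regions on chromosome 14 whose nearest named gene is the ribonuclease gene Ear1, 178764 to 774764 bp away. Enrichment there was near the level of the control in both WT libraries. By the lower of the WT folds, the highest missing islands were those over Dbndd1 (2.56 and 2.55 in WT), Ccdc106 with Zfp580, Fbll1, C2cd4a and Lrfn5, at 6 to 9 kb.

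Islands covered more of the longest genes in KO than in either WT library, while coverage of the shortest genes lay between the WT libraries. In the 533 genes of 300 kb or more, islands covered 21.6% of the gene length in KO, against 16.3% and 18.5% in WT. The KO length there was 1.33 and 1.17 times that of WT replicates 1 and 2. In the 11089 genes under 20 kb, the covered share was 18.1% in KO, against 16.7% and 23.8%, giving ratios of 1.08 and 0.760. From the shortest genes to the longest, the ratio increased in each step against both WT libraries. Covered length in the longest genes over that in the shortest was 4.26 in KO, 3.46 and 2.77 in WT at baseline, and 3.89, 3.33 and 3.32 in WT at 30, 40 and 96 h. KO had the highest of these 6 values. The genes touched by islands in KO alone had a median length of 164 kb, against 48.7 and 31.1 kb for those touched by islands alone in WT replicates 1 and 2. Inside 1 gene from end to end lay 31.7% of the islands in KO alone, against 17.0% and 23.2%. The gene length classes were chosen after these islands were seen. Islands at a fold of at least 1.5 covered 47.8 Mb of the longest genes in KO, against 32.0 and 34.97 Mb in WT. At a fold of at least 2 there was no surplus, with 3.39 Mb in KO, against 3.31 and 3.45 Mb. With the 3 baseline lists at equal total length the surplus was smaller, 51.9 Mb in KO, against 49.5 and 45.1 Mb. Length in the longest over the shortest genes was then 3.68 in KO, against 3.46 and 2.42. This KO value lay below the 3.89 of the full WT list at 30 h.

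**Figure D4:**
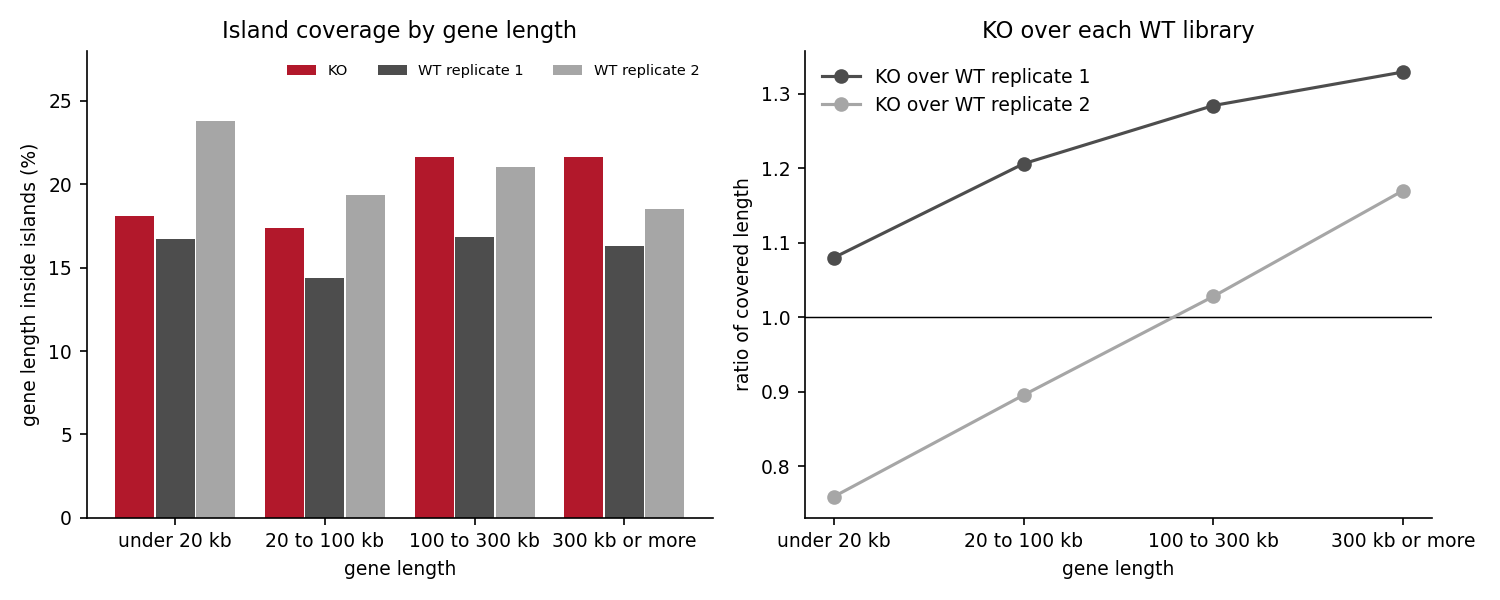
Left, share of gene length inside islands in percent (y axis) by gene length (x axis) for KO, WT replicate 1 and WT replicate 2, 1 library per bar. Right, covered length in KO divided by that in each WT library (y axis), with the line at 1 for equal length. The ratio runs from 1.08 to 1.33 against WT replicate 1 and from 0.760 to 1.17 against WT replicate 2.

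Hdac9, which encodes a histone deacetylase, had the most islands in KO alone. Over its 870 kb (chr12:34047580-34917095) KO had 15 islands, 9 of them in KO alone, against 5 in WT replicate 1 and 4 in WT replicate 2. They covered 37.2% of the gene in KO, against 13.0% and 13.9%. The folds of the 9 ran from 1.33 to 1.84. The later WT lists covered 19.4%, 12.6% and 25.99% of Hdac9 at 30, 40 and 96 h, so KO had the highest share of the 6 lists. Hdac9 and the genes that follow were picked for their islands in KO alone, so a high share in KO comes in part from that choice. The most islands alone in 1 gene were 2 for WT replicate 1 and 6 for WT replicate 2.

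Other long genes followed with 4 to 6 islands in KO alone, and 5 of them are described here. The count was made after the values were seen, and Tenm3, Lrmda and Etl4 also had 4. Tenm2 had 6 and was covered to 79.3% in KO, against 50.02% and 46.1%. Anks1b, a synaptic scaffold gene, had 5, with 56.4% in KO, against 39.8% and 36.5%. Unc79, a subunit of the sodium leak channel complex, had 4, and its islands covered 57.4% in KO, against 4.06% and 16.0% in WT. At 30 and 96 h WT islands covered 38.1% and 38.7% of Unc79, below KO and above the baseline WT libraries. At 40 h they covered 11.1%, between the baseline WT libraries. Col19a1, a collagen gene, had 4 and reached 42.5% in KO, against 13.6% and 14.5%. Ttc28, which encodes a protein with tetratricopeptide repeats, also had 4, but with 55.1% in KO, against 6.83% and 44.6%, it was close to WT replicate 2. In all, 33 genes held 3 or more islands in KO alone, against 0 for islands alone in WT replicate 1 and 28 for those alone in WT replicate 2. With 2 or more the counts were 116 for KO, against 7 and 135, and with any they were 520, against 161 and 1186.

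Few genes lay on opposite sides in KO and WT. Of 20665 protein-coding genes, islands covered at least 50% in 3929 in KO, against 3456 and 4662 in WT, and 2797 were so covered in all 3. Genes called gained, covered to 50% in KO and to 0% in both WT libraries, numbered 81 (0.392%). Genes called lost, with 0% in KO and at least 50% in both WT libraries, numbered 131 (0.634%). For WT replicate 1 in the place of KO the counts were 94 and 258, and for WT replicate 2 they were 629 and 120. Neighbouring genes share islands, so the 131 lost genes rest on 100 islands of WT replicate 1. The KO count was below both WT libraries for genes gained and between them for genes lost.

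The longest genes called gained had modest folds. Tmem116 (65.6 kb) was covered to 54.9%, Tfpi, an inhibitor of blood clotting, to 59.5%, and Sptssb, a subunit of serine palmitoyltransferase, to 54.6%, each against 0% in both WT libraries. The next were Nsun7, Clca3a2, Tmem71, Vmn1r4, Sun3, Clec4b2 and Ccl28, a chemokine gene, with folds of 1.33 to 1.60. Sun3, a gene of the sperm nuclear envelope, was the only gene of the 10 covered to 100%. Gzma, which encodes granzyme A of cytotoxic lymphocytes, was also covered to 100% in KO with a fold of 1.81, and was the only gained member among 20 lymphocyte genes.

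Of the lost genes with symbols named here, the 10 longest were covered to 51.4% or more in both WT libraries. Longer lost genes on chromosome 14, of up to 276.4 kb, have symbols of kinds not named. The longest of them had folds of 1.19 and 1.13 in WT. Wdr88 (39.3 kb) was covered to 61.0% and 91.0% in WT, against 0% in KO. Zfp541, a chromatin protein of male germ cells, stood at 0% in KO, against 93.2% and 82.0%. Slc13a5, the plasma membrane citrate transporter of liver, stood at 0% in KO, against 56.5% and 72.3%, with folds of 1.81 and 1.85. Lrrn4, Gpr179, Shisal2a, Nectin4, Prss35, the histone gene H2bc22 and Lamtor3-ps complete the 10 longest of those named. Lamtor3-ps lay in the weak chromosome 14 region and had folds of 1.32 and 0.904. Sox10, a transcription factor of neural crest, was covered to 88.6% and 99.1% in WT, against 0% in KO.

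Most gene groups stood alike in the 3 libraries, and the groups were chosen with earlier results of these data known. The 39 genes of the Hox clusters, regulators of body plan, were all covered in KO and in both WT libraries. Developmental transcription factors were covered at 107 of 112 in KO, against 107 and 110, with Sox10 the only gene lost. Hepatocyte genes were covered at 0 of 49 in KO, against 1 and 0 in WT. Germline genes whose silence depends on DNA methylation were covered at 16 of 45 in KO, against 14 and 16, with 0 gained and Tex19.2 lost. Imprinted genes were covered at 11 of 44 in KO, against 11 and 10, and interferon and viral sensing genes at 6 of 37, against 4 and 7. Polycomb and H3K27 demethylase genes stood at 4 of 32 in KO, against 3 and 4, and genes of DNA methylation at 2 of 21, against 1 and 2. Over all 30 groups, the number covered in KO lay within the WT range in 25 and above both WT libraries in 1, the stellate and fibroblast genes. It lay below both in 4, the olfactory receptor, defensin, cytochrome P450 and interferon alpha and beta genes.

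Markers of liver cells other than hepatocytes were also counted. Endothelial genes were covered at 7 of 20 in KO, against 3 and 8, stellate and fibroblast genes at 14 of 20, against 11 and 13, and macrophage and myeloid genes at 11 of 19, against 11 and 13. Bile duct genes stood at 9 of 18 in KO, against 8 and 11, and lymphocyte genes at 10 of 20, against 7 and 12. Only the stellate and fibroblast count lay above both WT libraries, by 1 gene. Among 29 single markers of these cells, coverage in KO was above both WT libraries for 7, below both for 1 (Reln) and within their range for 21. Many of the 21 were equal in all 3 libraries, at 100% (such as Des and Krt7) or at 0% (such as Spp1 and Cd68). The 7 included Clec4g (100% in KO, against 0% and 28.9%), Pdgfrb (100%, against 69.8% and 87.5%) and Ptprc (100%, against 78.96% and 50.6%). The others were Gzma (100%, against 0% in both), Cdh5 (58.0%, against 0% and 54.5%), Dcn (9.06%, against 0% in both) and Stab2 (2.42%, against 0% and 0.0228%). The median endothelial gene was covered to 33.9% in KO, against 0% and 24.1%. The part of other cells in any difference between lists was not tested. The hepatocyte markers Alb, Apoa1, Ttr, Serpina1a, Cps1 and Hnf4a were at 0% in all 3 libraries, and Cyp2e1 was covered to 17.8% in KO, against 62.6% and 8.86%.

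Multigene families showed exchanges in both directions. Olfactory receptor genes were covered at 177 of 1100 in KO, against 189 and 183, with 9 gained and 15 lost. Vomeronasal receptor genes stood at 36 of 352 in KO, against 40 and 33, with 6 gained and 4 lost. Reads that fit several copies make both uncertain. Cytochrome P450 genes stood at 20 of 93 in KO, against 23 and 21, with Cyp2ab1 gained and Cyp2g1 and Cyp2a5 lost together in 1 island. Kallikrein genes stood at 15 of 27, against 13 and 17, with Klk1b16 gained and Klk1b27 lost, and interferon alpha and beta genes at 8 of 18, against 12 and 9, with Ifna2 lost. Zinc finger Zfp genes stood at 25 of 386, against 13 and 34, with Zfp61 gained and Zfp541 lost. Potassium channel genes were covered at 48 of 92 in KO, against 45 and 61, with Kcnk6 lost. Keratin and keratin-associated genes stood at 79 of 109, against 75 and 81, with Krtap9-5 lost. Collagen genes stood at 15 of 42, against 8 and 19, and glutamate and GABA receptor genes at 14 of 43, against 10 and 15, with 0 gained or lost in both. The median glutamate or GABA receptor gene was covered to 29.2% in KO, against 7.81% and 9.34% in WT, and the median collagen gene to 38.2%, against 8.03% and 24.7%.

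Where islands had the same bounds, ChIP reads scaled for depth were close in KO and WT replicate 1. Of the 411 islands of equal bounds in KO and WT replicate 1, the median ratio of ChIP reads, KO over WT replicate 1 after scaling for depth, was 1.01, with 5% of islands below 0.858 and 5% above 1.13. A ratio above 1.2 was found in 4 (0.973%) and below the inverse of 1.2 in 13 (3.16%). The spread of the log2 ratio was 0.12 (SD over islands), against 0.07 expected from counting alone. Islands with a promoter had a median ratio of 0.982 (n = 132) and those without a promoter 1.02 (n = 279). Ordered by fold, the 137 lowest and 137 middle islands had medians of 1.02 and 1.03, and the 137 highest 0.976. Bounds that are equal in both lists select islands of like signal. Reads scaled to library size cannot show whether the total amount of the mark differed.

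**Figure D5:**
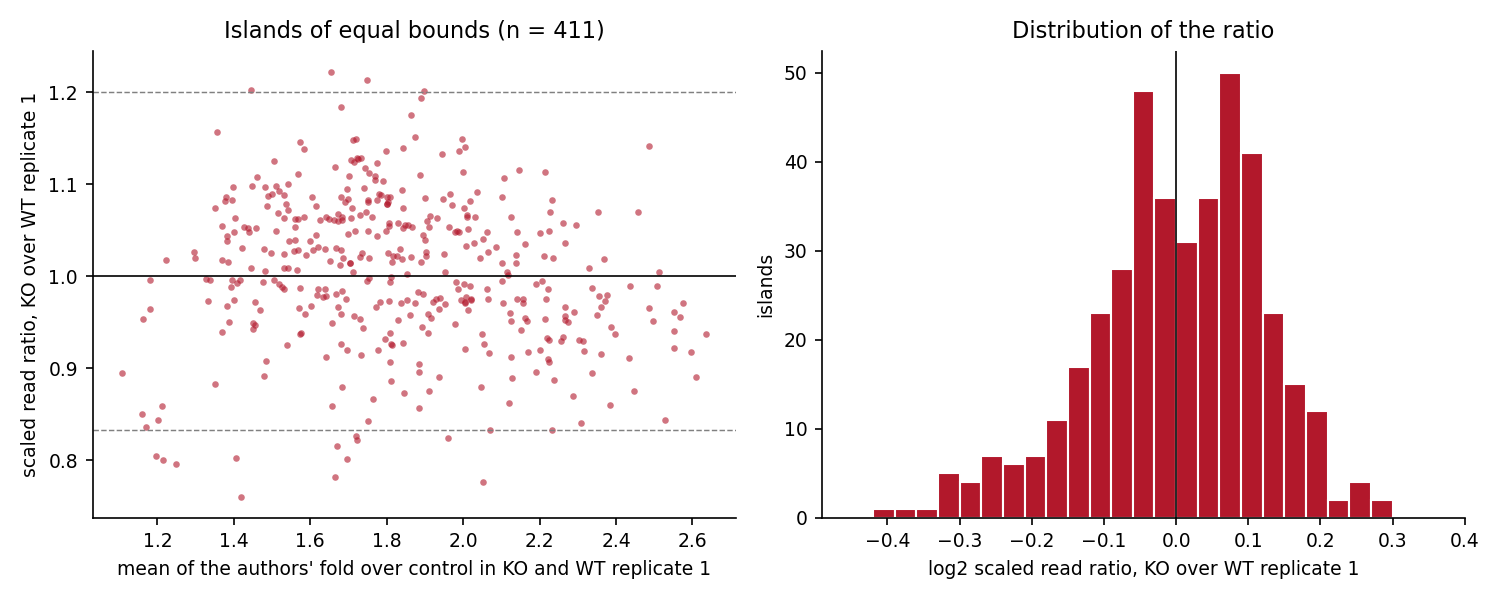
Left, scaled ratio of ChIP reads, KO over WT replicate 1 (y axis), against the mean of the authors' fold in KO and WT replicate 1 (x axis) for the 411 islands of equal bounds, with dashed lines at 1.2 and its inverse. Right, number of islands (y axis) by log2 of that ratio (x axis). The median ratio is 1.01, with 4 islands above and 13 below the dashed lines.

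The highest ratio was at Sytl3, a regulator of vesicle traffic on chromosome 17, where 68 kb held 4260 reads in KO and 3124 in WT replicate 1, a scaled ratio of 1.22 (interval 1.17 to 1.28). The next were islands near Dynlt1a and Lemd2, also on chromosome 17, and over Ccdc175 and Dspp, the dentin gene, at 1.19 to 1.21. The lowest ratio, at a 1 kb island in Cdk8, a kinase of the Mediator complex, was 0.761 (interval 0.618 to 0.936, from 174 and 205 reads). An island 11045 bp from Mup9, in the cluster of major urinary protein genes whose copies share reads, had 2693 reads in KO and 3110 in WT replicate 1, a ratio of 0.776. The 3 other low ones were a 1 kb island in Aida, a 6 kb island on chromosome 2 far from any gene with 13537 and 15245 reads, and a 102 kb island on chromosome 14, at 0.782 to 0.801.

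The 30 islands with equal bounds in all 3 lists allowed a test against both WT libraries. In edgeR's quasi-likelihood test 0 of 30 passed an adjusted p of 0.05 (0%), 0 had an unadjusted p under 0.05, and DESeq2 called 0. The spread in this test comes from the WT libraries alone, with 1 residual degree of freedom, and KO was assumed to vary like them. The log2 fold changes ran from -1.13 to 0.37. With 408 islands matched in all 3 lists by a reciprocal overlap of at least 90%, 5 were lower in KO (1.23%) and 0 higher. These 5, of 1 to 6 kb, are among the 30 of equal bounds, where the same reads gave adjusted p of 0.705 to 0.743 in edgeR and none passed. The coefficient of variation between libraries was estimated at 9.43% over the 408 islands and at 25.1% over the 30. The weight given to the spread shared by all islands (prior degrees of freedom) was infinite over the 408 and 1.12 over the 30. Only the fit over the 408 had an offset for island length. The calls thus depend on how the spread was estimated. In all 5, WT replicate 2 had the most reads. The strongest, 1 kb inside Mdga2, a gene of synapse adhesion, had 942 reads in KO, against 885 in WT replicate 1 and 2594 in WT replicate 2 (log2 fold change -0.89 with adjusted p = 7.56e-07 among the 408, and -0.77 with adjusted p = 0.743 among the 30, edgeR). Between KO and WT replicate 1 the scaled ratios of the 5 were 0.796 to 1.02. The Mdga2 island was dense in reads at little enrichment. The mean of its authors' folds in KO and WT replicate 1 was 1.16, and the median KO island held 41.0 ChIP reads per kb. For the others of the 5 this mean fold was 1.22 to 1.75. The 6 kb island on chromosome 2 had 13537 KO reads against 19035 control reads.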

How the data were processed

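The submitters' processing notes name FastQC (0.11.5), Trimmomatic, BWA, Picard, SICER and MACS2 as tools and GRCm38.p4 and mm10 as builds. The authors deposited 1 list of islands for each library. The deposited columns hold ChIP and control reads as raw counts, the authors' fold (a ratio to the control after scaling by library size), and the authors' p-value and false discovery rate (a q-value), which exceeded 0.01 for 397 islands of WT replicate 2 and for 0 of the others. H3K4me3 and H3K9me3 peaks deposited by the authors were read for position only. Total depth is unknown. The scale between ChIP and control reads was 0.642 in KO, 0.576 in WT replicate 1 and 0.447 in WT replicate 2.

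Islands that shared at least 1 bp were taken to meet, and reads of KO and WT replicate 1 were scaled by these values. RefSeq tables of GRCm38.p6 gave 20665 protein-coding genes and the 300-base promoters of 16457. Each count was repeated with a WT library in the place of KO. The islands named are the longest, the most joined or split and those of highest fold or extreme read ratio. The genes named are the longest gained and lost, and list members gained or lost. Symbols of the Gm, LOC and Rik kinds were not named. The members and lists were chosen with earlier results of these data known. Tools were Python 3.11.15 with pandas 2.3.3 and scipy 1.17.1, and R 4.3.3 with edgeR 4.0.16 (TMM scaling) and DESeq2 1.42.0. The code was tested on simulated data.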

Additional observations from a re-analysis of the deposited data

How the results depend on the processing

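The counts of islands depend on which WT library is asked. Leaving out 1 WT library gave 2617 to 3508 islands in KO alone, 720 to 2444 missing in KO, 216 to 368 genes gained and 243 to 799 lost. The same gave a promoter share of islands in KO alone of 5.85% to 7.24%, a covered length of 9.80 to 82.5 Mb above WT, a median length from -2000 to 1000 bp and an intergenic share from -1.89 to 0.717 points against WT. KO covered 1.17 to 1.33 times the length of WT in genes of 300 kb or more and 0.760 to 1.08 times in genes under 20 kb, so the direction in short genes rests on WT replicate 2.

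With only islands at a fold of at least 1.5, 812 KO islands joined and 640 WT islands split. At that limit 125 genes were gained and 90 lost, against 81 gained and 131 lost over all islands, so the balance turned. KO then covered 1.43 times the WT mean in genes of 300 kb or more. With islands within 10 kb joined first, 790 joined and 419 split. At equal covered length 705 islands were missing in KO, and the ratio in long genes was 1.10. With 10% of a gene as covered, 154 genes were gained and 200 lost. The median read ratio was 1.03 when scaled by reads in these islands, 1.13 unscaled and 1.02 with reciprocal overlap. Matching by reciprocal overlap gave 5 calls in edgeR, all islands that the fit over 30 had tested without a call. The cause of these shifts was not tested.

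Alternatives for promoters, gene lengths and a fold of 2 were chosen after seeing the data. At a fold of 2 or more, 430 islands were in KO alone, against 376 and 497 alone in WT, and 29.5% held a promoter, against 41.8% and 44.7%. At equal covered length the promoter shares were 4.37% for KO, against 13.9% and 25.3%. Of 78 alternatives, 50 moved a count by less than 1.5 times or a value by less than its spread. Some of the 50 could hardly differ. The limit on the false discovery rate removed islands from WT replicate 2 alone, and equal covered length sets the covered lengths equal by design. For covered length the spread, 51.4 Mb, also exceeded the difference itself, 46.15 Mb. The edgeR test without a WT library has no residual degrees of freedom and was not run. No paired analysis was possible because KO has 1 library.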
